A study of Mus musculus with 6 samples.

Results

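The desmosome genes described here are Dsg2, Dsc2, Dsc3, Jup, Pkp1, Pkp2, Pkp3, Pkp4 and Dsp, read through every probe set whose gene symbol in the array's annotation is exactly 1 of these names. That gave 23 probe sets for the 9 genes, of 45101 on the array, and 9 of 9 genes matched the RefSeq gene table by identifier. The tissue was the surface epithelium of the gonadal primordium of mouse fetuses at E10.5, cut out by laser microdissection at a place located by GATA4 staining of some sections. Each of the 3 wild-type (+/+) and 3 Emx2 knockout (-/-, KO) pools combined material from 3 fetuses of 1 genotype and went onto 1 array after 2-cycle amplification of its RNA. The strain, the sex and the litters of the fetuses, and the part of Emx2 that the mutation removes, are not given in the sources used here, so p-values measure the spread between pools.

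Desmosomes are spot-like junctions that tie the intermediate filaments of neighbouring cells together. Desmogleins and desmocollins are the cadherins that span the gap between the cells. On the inner side the armadillo proteins plakoglobin (encoded by Jup) and the plakophilins (Pkp genes) bind the cadherin tails and cluster them, and desmoplakin (Dsp) links this plaque to keratin, desmin or vimentin filaments. Pkp2, Dsg2 and Dsc2 are the forms known from simple epithelia and heart muscle, whereas Pkp1 and Dsc3 belong mainly to stratified epithelia. Pkp4, also called p0071, is a relative found at adherens junctions as well as desmosomes.

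Of the desmosome genes, Pkp2 alone passed the test, and it fell in the KO pools to 51.5% of the wild-type level at its brightest probe set. A second Pkp2 probe set passed with nearly the same change. The plaque gene Dsp and the cadherin gene Dsg2, read at their brightest probe sets, had log2 fold changes of 0.09 and 0.03 and did not pass. At their brightest probe sets Dsc2 and Pkp3 had higher values in every KO pool than in any wild-type pool but did not pass. In limma's test with Benjamini-Hochberg adjustment over 27022 probe sets, 2 of the 17 tested desmosome probe sets passed, 0 higher and 2 lower, both of Pkp2. Over all probe sets 4.68% passed (1264), 2.75% higher and 1.93% lower, so the share among desmosome probe sets was above the background only through this 1 gene. The count over all probe sets was lower without wild-type pool 1 (721) and without KO pool 1 (815), KO pool 2 (834) or KO pool 3 (790). Of these counts, the higher ones (742) became 450 without wild-type pool 1, and 441, 468 and 452 without KO pool 1, 2 and 3. The lower ones (522) became 267 with unscaled values, 271 without wild-type pool 1, 792 without wild-type pool 3 and 338 without KO pool 3. With no filter on dim probe sets they were 107 and 44, and without an intensity trend 317 and 224.

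Values below are intensities scaled to a common level per array, means are given with SD over 3 pools, and each log2 fold change is the KO mean less the wild-type mean, with its standard error (SE). The dim limit of 26.4 is the intensity below which the mean log2 value of a probe set left it untested, and 7.99 is the floor to which lower values were raised. The single Emx2 probe set ranged from 1302 to 2120 in wild-type pools and from 1480 to 1746 in KO pools (change −0.05 in log2, SE 0.15, adjusted p = 0.916), so it does not check the genotype labels, and KO means the pools labelled as such. Of 8 markers of this epithelium all were tested, 1 rose (Krt19, described with the keratins) and 1 fell, against 4.68% called over all probe sets, and their median log2 fold change was 0.05. Nr5a1, a transcription factor of the gonad and adrenal, read 1419, 2060.4 and 1517 in wild-type pools, against 802, 727 and 601 in KO pools. It fell by 1.22 on the log2 scale (SE 0.15, adjusted p = 0.000492), and of the 16 alternatives only the fit with no filter did not call it (adjusted p = 0.111). Gata4 (log2 fold change 0.62, SE 0.16, adjusted p = 0.0501) and Wt1 (−0.40, SE 0.11, adjusted p = 0.0715), transcription factors of this epithelium, had groups that did not overlap but did not pass. Gata4 passed in 5 of the alternatives, with adjusted p between 0.0129 (without wild-type pool 2) and 0.0472. The genotypes also differed in sex markers. The brightest Xist probe set ranged from 13.3 to 69.9 in wild-type pools and from 9321 to 9888 in KO pools, and Eif2s3y from 709 to 813 and from 99.8 to 226. An effect of genotype and an effect of sex cannot be told apart in this design.

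**Figure D1:**
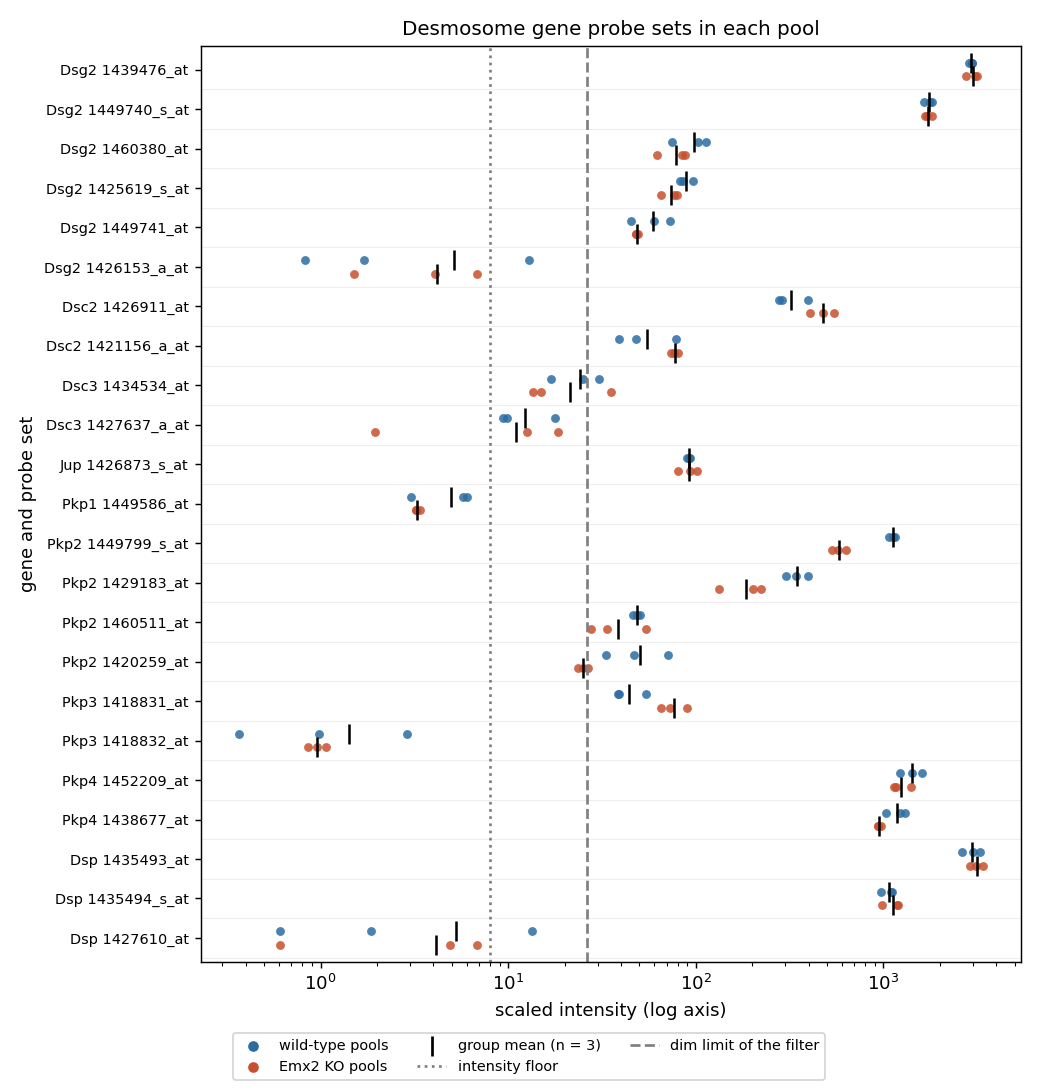
Scaled intensity (log axis) of each of the 23 desmosome probe sets, 1 point per pool, with wild-type pools above and Emx2 KO pools below on each line, black ticks at the group means (n = 3), a dotted line at the floor of 7.99 and a dashed line at the dim limit of 26.4. The 2 brighter Pkp2 probe sets show separate groups, lower in KO. Groups are also separate, higher in KO, at the brightest Dsc2 and Pkp3 probe sets, and they overlap at the brightest Dsg2, Dsp and Pkp4 probe sets. Over all tested probe sets 22.0% had separate groups.

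Among the plakophilins, Pkp2 was read by 4 probe sets. The brightest, 1449799_s_at, read 1128, 1159 and 1075 in wild-type pools, against 529, 572 and 633 in KO pools. The highest KO pool lay well below the lowest wild-type pool. The means were 1120.5 ± 42.8 and 578 ± 52.2, a log2 fold change of −0.96 (SE 0.12, 95% confidence interval −1.21 to −0.71, adjusted p = 0.000393), which ranked 115 by p among the 27022 probe sets. In samples of bulk RNA, fewer cells carrying a transcript and less transcript per cell cannot be told apart. This call held in the 16 alternative analyses run, with log2 fold changes between −1.03 and −0.86 and adjusted p between 0.000213 and 0.0364.

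The second Pkp2 probe set, 1429183_at, read 340.2, 394 and 301 in wild-type pools, against 202, 133 and 223 in KO pools. Again no KO pool reached the wild-type range, with KO pool 2 the lowest. Its means were 345 ± 46.8 and 186 ± 47.4 (log2 fold change −0.92, SE 0.20, adjusted p = 0.0196). It no longer passed without wild-type pool 1 (adjusted p = 0.0735), without wild-type pool 2 (0.0702) or without KO pool 2 (log2 fold change −0.69, adjusted p = 0.0669). It also did not pass with unscaled values (adjusted p = 0.0729), with no filter on dim probe sets (0.235) or without an intensity trend (0.0975).

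Both remaining Pkp2 probe sets were dim. Probe set 1420259_at, annotated from the same transcript sequence as the brightest, read 71.0, 46.8 and 33.3 in wild-type pools, against 25.2, 26.6 and 23.6 in KO pools. Its groups did not overlap, its KO mean of 25.1 lay under the dim limit, and it did not pass (log2 fold change −0.94, SE 0.33, adjusted p = 0.147). Probe set 1460511_at read 50.7, 46.0 and 48.8 in wild-type pools, against 54.2, 33.5 and 27.7 in KO pools. Here KO pool 1 was the highest of the 6 pools and the other KO pools were the lowest. Its log2 fold change of −0.39 did not pass (SE 0.30, 95% confidence interval −1.05 to 0.27, adjusted p = 0.573), and the interval contains both 0 and the −0.96 of the brightest probe set.

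Pkp4 was read by a bright pair of probe sets. Probe set 1452209_at read 1425, 1230.4 and 1609 in wild-type pools, against 1167, 1409 and 1138 in KO pools. The groups overlapped, and the log2 fold change of −0.20 (SE 0.13, 95% confidence interval −0.47 to 0.07) did not pass (adjusted p = 0.471). Probe set 1438677_at read 1229, 1027 and 1302 in wild-type pools, against 935, 941 and 976 in KO pools. All KO pools were below the wild-type pools there, but the log2 fold change of −0.31 (SE 0.12, 95% confidence interval −0.56 to −0.06) did not pass (adjusted p = 0.171). Neither interval reaches the −0.92 of the smaller of the changes called for Pkp2.

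Pkp3, a plakophilin of most desmosome-bearing epithelia, had 1 tested probe set. It read 38.4, 54.5 and 38.8 in wild-type pools, against 65.3, 73.1 and 90.2 in KO pools, so every KO pool was above every wild-type pool. The means were 43.9 ± 9.15 and 76.2 ± 12.7, and the log2 fold change of 0.80 (SE 0.26, 95% confidence interval 0.24 to 1.36) did not pass (adjusted p = 0.113). In 15 alternative analyses in which it was tested its adjusted p lay between 0.0793 and 0.334. The other Pkp3 probe set lay under the floor in all 6 pools, at most 2.90. The only Pkp1 probe set also lay under the floor in all 6 pools, between 3.05 and 6.05, and was not tested.

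Jup, whose product plakoglobin is shared by desmosomes and adherens junctions, had 1 probe set. It read 91.8, 90.2 and 93.2 in wild-type pools, against 102, 80.8 and 93.1 in KO pools. The wild-type pools lay inside the KO range, and the log2 fold change was −0.0038 (SE 0.20, 95% confidence interval −0.44 to 0.43, adjusted p = 0.996). Changes of Jup within these bounds are not excluded. With 3 arrays per group, the bounds are not the smallest change that the adjusted test could call.

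Dsp, the filament linker, read 3266, 2618 and 3007 in wild-type pools, against 3405, 2886 and 3128 in KO pools at probe set 1435493_at. The groups overlapped, with means of 2964 ± 326 and 3139.7 ± 259.6 and a log2 fold change of 0.09 (SE 0.10, 95% confidence interval −0.13 to 0.31, adjusted p = 0.74). Probe set 1435494_s_at, annotated from the same transcript sequence, gave 1117, 976 and 1101 against 1187, 980.2 and 1192. Its groups overlapped as well (log2 fold change 0.07, SE 0.12, adjusted p = 0.827). The third Dsp probe set reached at most 13.4 in any pool and was not tested. The upper and lower bounds of both tested probe sets exclude a change as large as that of Pkp2 in either direction.

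Of the desmosomal cadherins, Dsg2 was read by 6 probe sets, 5 of them tested and 0 passing. The brightest, 1439476_at, read 2966, 2869.6 and 2951 in wild-type pools, against 3087, 2766 and 3135 in KO pools. The wild-type pools lay inside the KO range (log2 fold change 0.03, SE 0.09, 95% confidence interval −0.15 to 0.22, adjusted p = 0.901). The next, 1449740_s_at, gave 1819, 1643 and 1761 against 1662, 1709.7 and 1809, again with overlap (−0.01, SE 0.09, adjusted p = 0.969), its sign turning under quantile normalization and with unscaled values. The 3 dimmer tested probe sets had log2 fold changes between −0.31 and −0.26, with SE between 0.21 and 0.26 and adjusted p between 0.571 and 0.672. Of these, 1460380_at read 114, 103 and 74.5 in wild-type pools, against 88.1, 84.1 and 62.0 in KO pools, and 1449741_at read 60.1, 45.4 and 72.7 against 48.0, 49.0 and 48.3. Their groups overlapped. Groups did not overlap at the other one, 1425619_s_at, which read 82.3, 86.0 and 96.4 in wild-type pools, against 79.6, 65.5 and 76.7 in KO pools. The sixth Dsg2 probe set, at most 12.9 in any pool, was not tested.

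Dsc2, the desmocollin of simple epithelia, read 287, 279 and 394 in wild-type pools, against 476, 408 and 543 in KO pools at probe set 1426911_at. Every KO pool was above every wild-type pool, although wild-type pool 3 came close to KO pool 2. The means were 320.04 ± 63.9 and 476 ± 67.5, and the log2 fold change of 0.58 (SE 0.17, 95% confidence interval 0.22 to 0.95) did not pass (adjusted p = 0.0743). Without wild-type pool 3 it was 0.74 and passed (adjusted p = 0.0202), and with arrays weighted by their quality it was 0.62 and passed (0.0468). The second Dsc2 probe set read 38.9, 78.4 and 48.3 against 73.7, 76.8 and 80.6, with wild-type pool 2 inside the KO range. Its log2 fold change of 0.54 (SE 0.28, adjusted p = 0.345) did not pass, and it was 0.32 without wild-type pool 1 and 0.83 without wild-type pool 2. Both Dsc3 probe sets were dim, ranging from 17.0 to 30.5 in wild-type pools and from 13.6 to 35.4 in KO pools at the brighter, and neither was tested.

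**Figure D2:**
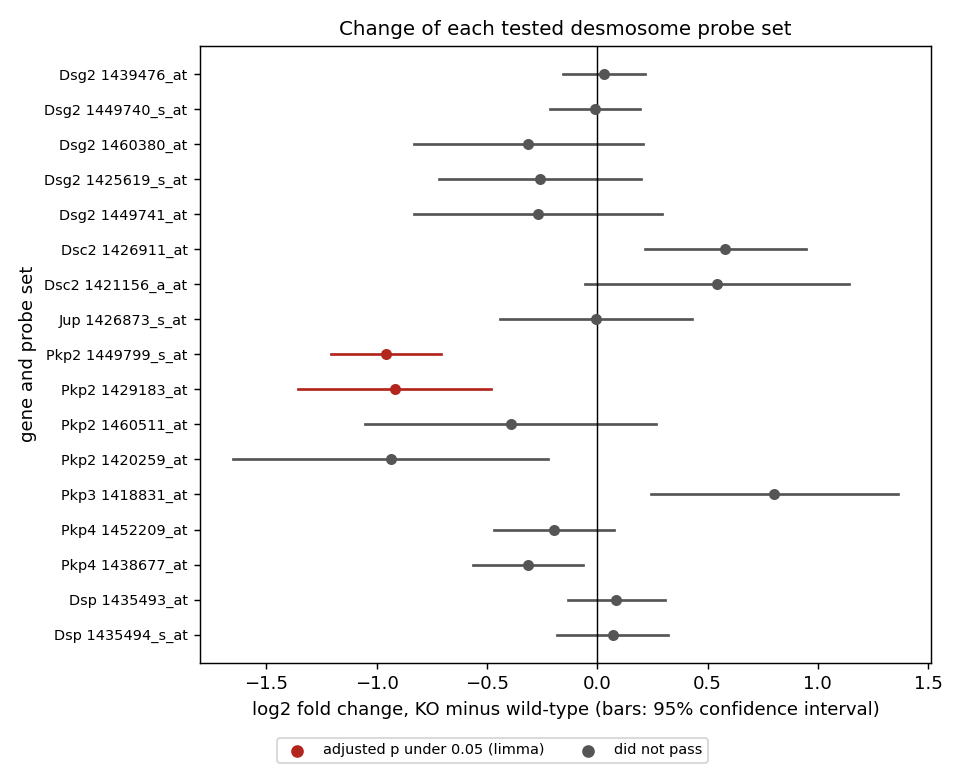
Log2 fold change, KO minus wild-type, of each of the 17 tested desmosome probe sets (points) with its 95% confidence interval from limma (bars); red marks an adjusted p under 0.05. The red Pkp2 points lie at −0.96 and −0.92, the Dsg2 points lie between −0.31 and 0.03, and the Dsc2 and Pkp3 points lie between 0.54 and 0.80.

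As a description of the 17 tested probe sets, which share genes and are not independent, the median log2 fold change was −0.20, against 0.01 over all tested probe sets. Of these 17, 6 had a log2 fold change above 0 and 11 below. Groups did not overlap in 7 of them, 2 higher and 5 lower in KO, where over all tested probe sets 22.0% did not overlap, 12.0% higher and 10.0% lower. Of the 5 that were lower, 3 belonged to Pkp2, 1 to Pkp4 and 1 to Dsg2. The 2 that were higher belonged to Dsc2 and Pkp3.

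Because a ratio of 2 probe sets on 1 array does not depend on a single scaling factor per array, Pkp2 was also set against each of the other 6 tested desmosome genes pool by pool, each gene by its brightest probe set. The difference between KO and wild-type in the log2 ratio was −1.04 against Dsp. It was −0.99 against Dsg2 and −0.95 against Jup. It was −0.76 against Pkp4, its nearest in change, −1.54 against Dsc2 and −1.76 against Pkp3. In all 6 pairs every KO pool was below every wild-type pool. The exact two-sided permutation test gave p = 0.1 for each pair, 0.1 adjusted over the 6 pairs, which is the smallest p that 3 pools against 3 allow, so none could pass the threshold. The ratios share the Pkp2 values, whose groups already did not overlap, so the 6 pairs are not 6 separate results. A ratio also does not say which gene of a pair differs. Taking the mean of all tested probe sets of a gene in place of the brightest moved the difference against Dsg2 to −0.64.

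**Figure D3:**
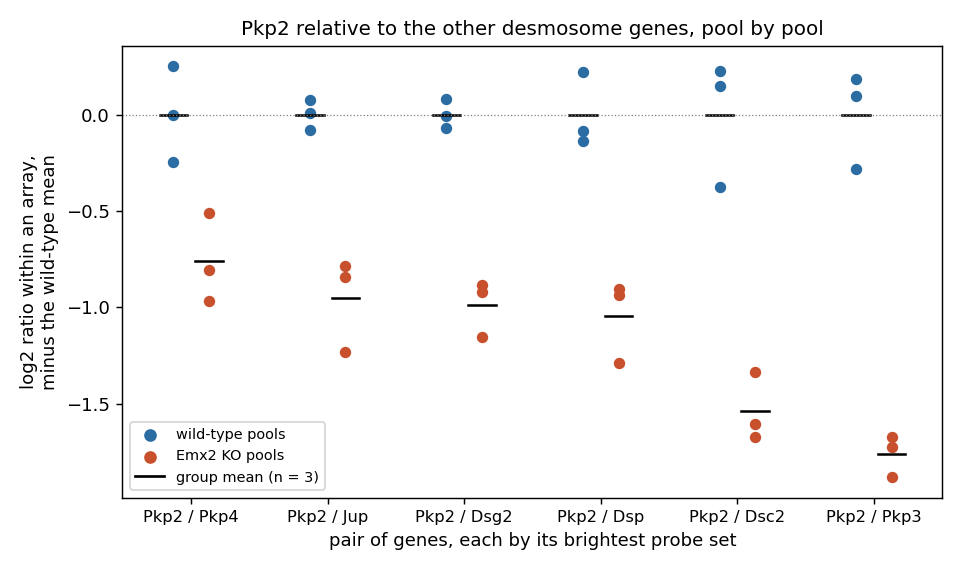
Log2 ratio of Pkp2 to each other tested desmosome gene within each array, minus the wild-type mean of that ratio, for 3 wild-type and 3 Emx2 KO pools (points) with group means (bars). The KO means run from −0.76 for the ratio to Pkp4 to −1.76 for the ratio to Pkp3, with no overlap between groups in any pair.

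Other genes that build desmosomes or take their load were ranged from lists that were chosen with earlier results of these data known. Of 8 further desmosomal or desmosome-associated genes on the array, 3 were above the dim limit and 0 passed. Perp, a membrane protein of desmosomes in stratified epithelia, ranged from 36.3 to 43.6 in wild-type pools and from 40.2 to 62.4 in KO pools, and its log2 fold change of 0.42 did not pass (SE 0.28, adjusted p = 0.494). Pnn, a desmosome-associated and nuclear protein, gave 0.05 (SE 0.16, adjusted p = 0.926), with a sign that turned without wild-type pool 2 (−0.12) or without KO pool 1 (−0.06). The skin forms Dsg1a, Dsg1b and Dsc1 were not above the dim limit. The count of 0 among these 3 tested genes stands against 4.68% over all probe sets.

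Of 12 intermediate filament genes, 8 were tested, 1 rose, 1 fell and 6 did not pass, with a median log2 fold change of 0.21, where 2.75% of all probe sets rose and 1.93% fell. Krt8, the type II keratin of simple epithelia, read 2299, 2324 and 1928 in wild-type pools, against 1341, 1467 and 1547 in KO pools. It fell without overlap of the groups (log2 fold change −0.59, SE 0.11, adjusted p = 0.00615). The call did not hold with unscaled values (−0.49, adjusted p = 0.343), with no filter on dim probe sets (0.122) or without an intensity trend (0.0852). Krt18, its pairing partner, chosen after its values were seen, read 1882, 1211 and 1820.1 in wild-type pools, against 1251, 1532 and 986 in KO pools. These groups overlapped, and Krt18 did not pass (−0.38, SE 0.18, adjusted p = 0.304). Krt19, a type I keratin of simple epithelia, read 135, 168 and 146 in wild-type pools, against 313, 247 and 357 in KO pools. Every KO pool was higher, and Krt19 rose (log2 fold change 1.02, SE 0.18, adjusted p = 0.0052), and of the alternatives only the fit over all probe sets without a filter lost the call (adjusted p = 0.119).

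Among 10 genes of the classical cadherin and catenin system, relatives and neighbours of the desmosomal plaque, 8 were tested, 0 passed (4.68% over all probe sets) and the median log2 fold change was −0.01. Ctnnd1, which encodes p120 catenin of the same armadillo subfamily as the plakophilins, read 280, 294 and 233 in wild-type pools, against 381, 368 and 349 in KO pools. The groups did not overlap, but the log2 fold change of 0.45 did not pass (SE 0.15, adjusted p = 0.116). Arvcf, a further p120 relative, read 269, 370 and 280 against 186, 241 and 248, also without overlap and without passing (−0.44, SE 0.18, adjusted p = 0.215).

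**Figure D4:**
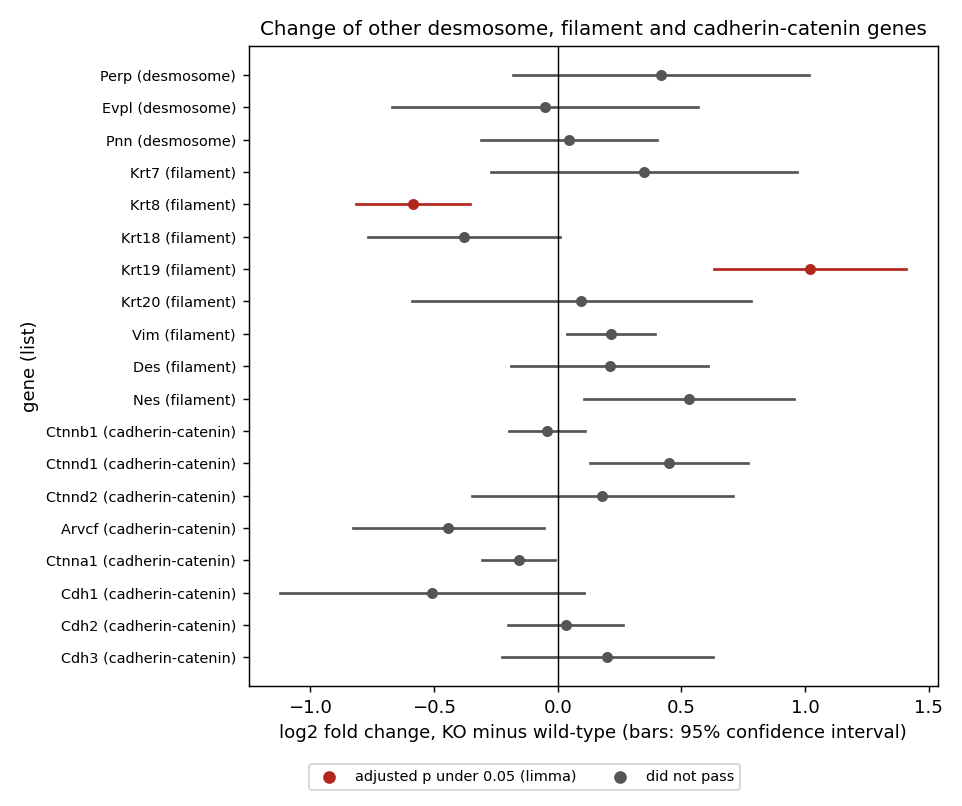
Log2 fold change, KO minus wild-type, with its 95% confidence interval for the 19 tested genes of the further desmosome, intermediate filament and cadherin-catenin lists, each by its brightest probe set; red marks an adjusted p under 0.05 in limma. The keratin genes Krt8 (−0.59) and Krt19 (1.02) passed in opposite directions, and the other 17 genes did not pass.

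Markers of other desmosome-bearing cells that lie near this epithelium moved with genotype in part. Of 8 nephric duct markers 7 were on the array, 5 were tested, 0 rose and 2 fell, where 1.93% of all probe sets fell. The summed intensity of the 7 on the array ran from 543 to 583 in wild-type pools and from 281 to 408 in KO pools. The groups were apart in the direction of Pkp2. Lhx1, a duct transcription factor, fell by 1.51 on the log2 scale (SE 0.30, adjusted p = 0.0116), but its KO pools, at 20.6, 22.4 and 19.3, lay under the dim limit, so the size is uncertain. It was −1.07 with a floor at the 40th percentile and −1.03 with a pseudocount of 16, and it did not pass without wild-type pool 1 (adjusted p = 0.0694) or with no filter (0.111). Pax8, another duct factor, fell by 1.36 (SE 0.29, adjusted p = 0.0166), a call lost without wild-type pool 1 (0.0651), wild-type pool 2 (0.059) or KO pool 3 (0.0636), with no filter (0.194) and without an intensity trend (0.0573). It read 50.6, 37.7 and 24.2 in KO pools, the last under the dim limit, so this size is uncertain too. Over the 15 alternatives that tested Pax8 the change ran from −1.606 to −1.043. Cdh1, the cadherin of duct and other epithelia, ranged from 60.4 to 87.5 in wild-type pools and from 43.5 to 77.5 in KO pools and did not pass (adjusted p = 0.401). The part of duct cells in the lower Pkp2 was not tested.

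Of 8 heart muscle markers, 6 were tested, 1 rose and 2 fell, against 4.68% called over all probe sets, and their summed intensity overlapped between groups (835 to 926 in wild-type, 715 to 858 in KO). Myh6 and Myh7, cardiac myosins, fell by 2.47 (SE 0.23) and 1.46 (SE 0.28) on the log2 scale, and Tnnt2, cardiac troponin T, rose by 1.77 (SE 0.18), with adjusted p of 6.95e-05, 0.00946 and 0.000134 in that order. With no filter Myh7 (adjusted p = 0.232) and Tnnt2 (0.0523) did not pass, nor did Myh7 without an intensity trend (0.0798). Of 8 surface ectoderm markers, 3 were tested and 1 fell, beside 1.93% over all probe sets. That was Grhl3, an epidermal transcription factor (−1.31, SE 0.27, adjusted p = 0.0127), whose call was lost without wild-type pool 1 (0.0733) or KO pool 3 (0.0529) and with no filter (0.139). Its KO pools, at 42.7, 30.0 and 31.5, lay near the dim limit, so the size of its change is uncertain. Over the 15 alternatives that tested Grhl3 the change ran from −1.465 to −1.003. Trp63, Krt5, Krt14, Krt15 and Krt17, which define stratified epithelium, were all too dim to be tested. The sum of the ectoderm list overlapped between groups, at 393 to 484 in wild-type pools and 290 to 413 in KO pools.

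Gut endoderm markers (4 tested of 7 on the array) and hepatoblast markers (4 tested of 6) gave 0 calls. Their sums overlapped between groups, at 289 to 319 and 256 to 341 for gut, and at 174 to 2042 in wild-type and 228 to 495 in KO pools for hepatoblasts. The smallest p in the gut list were those of Cldn6 (log2 fold change −0.71, SE 0.41, adjusted p = 0.428) and Sox17 (0.33, SE 0.31, adjusted p = 0.666). In the hepatoblast list they were those of Ttr, transthyretin (−1.72, SE 0.67, adjusted p = 0.197), and Afp, alpha-fetoprotein (−0.71, SE 0.93, adjusted p = 0.766), both highest in wild-type pool 2. Ttr passed with unscaled values (−1.63, adjusted p = 0.00962). Of 8 mesenchyme markers, all tested, 5 rose and 0 fell, where 2.75% of all probe sets rose. Their sum ranged from 10167 to 10814 in wild-type pools and from 14527 to 14886 in KO pools. The larger changes were those of Twist1, a mesodermal transcription factor (log2 fold change 1.75, SE 0.13, adjusted p = 1.25e-05), Postn, the matrix protein periostin (1.10, SE 0.14, adjusted p = 0.000674), Pdgfrb, a growth factor receptor (0.85, SE 0.11, adjusted p = 0.000786), and Prrx1, a mesenchymal homeobox gene (0.81, SE 0.20, adjusted p = 0.0401). Prrx1 did not pass in 8 of the 16 alternatives, at adjusted p between 0.0611 and 0.287, among them those without wild-type pool 1 (0.0748) or 2 (0.0902) and without KO pool 1 (0.107), 2 (0.101) or 3 (0.138), and Postn did not pass with no filter (0.122).

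Of 8 endothelial markers, 6 were tested, 4 rose and 0 fell, where again 2.75% of all probe sets rose. Pecam1 and Tie1 were too dim to be tested. The sum over all 8 ranged from 771 to 1018 in wild-type pools and from 1309.5 to 1577 in KO pools. The 4 were Emcn, endomucin (log2 fold change 1.39, SE 0.33, adjusted p = 0.0306), Tek, the angiopoietin receptor (1.29, SE 0.24, adjusted p = 0.00834), Cldn5, an endothelial claudin (0.85, SE 0.22, adjusted p = 0.0411), and Egfl7, a secreted endothelial protein (0.51, SE 0.13, adjusted p = 0.0404). The wild-type pools of Emcn (19.6, 20.7 and 25.7) lay under the dim limit, so the size of its change is uncertain. Emcn did not pass in 7 of the 15 alternatives that tested it (adjusted p 0.0503 to 0.209). Of 16 alternatives, Cldn5 did not pass in 7 (0.0533 to 0.297) and Egfl7 in 11 (0.0527 to 0.261). Tek did not pass with no filter (0.091). For Emcn these included leaving out wild-type pool 1 (0.101) or 2 (0.0699) and KO pool 1 (0.163) or 3 (0.0943). For Cldn5 they included leaving out wild-type pool 1 (0.139) or 3 (0.0808) and KO pool 1 (0.0922) or 2 (0.174). For Egfl7 they included leaving out wild-type pool 2 (0.0752) or 3 (0.0901) and KO pool 1 (0.094), 2 (0.143) or 3 (0.123). The part of any of these lists in the desmosome values was not tested. The log2 ratio of 3' to 5' control probe sets, a measure of RNA and amplification length, differed between groups by less than the spread between pools, by −0.01 for Gapdh and 0.08 for Actb (exact permutation p = 1 and 0.8, smallest possible 0.1). The 3' signal was the higher in every array. The unlogged ratio ran from 3.48 to 4.25 for Gapdh and from 14.6 to 20.2 for Actb.

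The genes whose profile over the 6 arrays lay nearest to that of the brightest Pkp2 probe set were sought among 12314 other genes, by the root mean square distance between log2 values centred on each probe set's own mean. Since Pkp2 differed between genotypes, near profiles also fall in KO. Nearest was Lpl, lipoprotein lipase, at a distance of 0.06, which read 4302, 4740.3 and 3980.0 in wild-type pools, against 2069, 2078 and 2559 in KO pools, with a log2 fold change of −0.96. Then came Prss35, of the serine protease family (0.06), Spsb4 (0.08), 6430548M08Rik (0.08) and Map3k1, a kinase upstream of JNK and ERK signalling (0.09). The log2 fold changes of these 5 genes lay between −1.09 and −0.86, a description only, since they were chosen for following Pkp2. Of them, 6430548M08Rik did not pass limma's test (adjusted p = 0.066). Its KO pools, at 29.8, 37.9 and 37.1, lay near the dim limit. Here each gene was placed by its nearest tested probe set, not its brightest. Of the other desmosome genes the nearest was Pkp4 (1438677_at), at rank 1339 with a distance of 0.35. The farthest was Pkp3, at rank 11923 with 0.89.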

How the data were processed

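The values are linear intensities, 1 per probe set and array, as deposited by the authors. The submitters' processing notes name GCOS 1.2, and no source used here gives its algorithm or scaling. The trimmed means (2% off each end) of the arrays differed by up to 1.47 times, so each array was brought to a common 309.2. Values under the 20th percentile (7.99) were raised to that level before log2 transformation. Control probe sets (64) and the 40% with the lowest mean log2 value were dropped, which kept 27022. The contrast of KO with wild-type was fitted by limma 3.58.1 under R 4.3.3 (eBayes with intensity trend, two-sided, Benjamini-Hochberg, threshold 0.05). No detection calls were used. The procedure was tested on simulated data. For tests, genes in lists were read by their brightest tested probe set. The shares given beside list counts are over all 27022 tested probe sets, dim ones and several of 1 gene among them, so the units differ. Summed intensities took the brightest probe set of every list gene on the array, tested or not.

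The rule for named genes took every desmosome probe set, of each list the called genes (up to 4 by size, otherwise the 2 of smallest p) and the 5 nearest profiles. Values by pool are given for those a result turns on, and probe sets too dim to be tested are given by ranges or maxima. The desmosome genes and lists were chosen with earlier results of these data known. Labels share replicate numbers 1 to 3, but deviations of same-numbered arrays correlated at −0.07, 0.04 and −0.05, so arrays were not paired. Alternatives covered scaling, floor, filter, replicate block, variance model and each pool left out.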

Additional observations from a re-analysis of the deposited data

How the results depend on the processing

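The fall of Pkp2 at its brightest probe set passed in 16 of 16 alternatives (log2 fold change −1.03 to −0.86). The 2 desmosome probe sets called became 1 with unscaled values, with no filter and without an intensity trend, and 1 to 3 with 1 pool left out. The count for the further desmosome, filament and catenin genes (2) became 1 with unscaled values, 0 with no filter (where limma called 151 probe sets in all) and 1 without an intensity trend. Over all probe sets the count of 1264 became 151 with no filter and 541 without an intensity trend, and 721 to 1682 with 1 pool left out. With the replicate block, 3 desmosome probe sets passed, Dsc2 being added (adjusted p = 0.0487). The labels do not say whether equal replicate numbers pair the samples. Signs turned at values near 0. Jup gave 0.089 with unscaled values and ranged from −0.081 to 0.086 with 1 pool left out. Dsg2 at 1449740_s_at gave 0.0060 with quantile normalization, 0.081 with unscaled values and −0.053 to 0.021 with 1 pool left out, and at 1439476_at it gave −0.0034 to 0.087. With 1 pool left out Dsp at 1435493_at gave −0.00046 to 0.16 and Pnn −0.12 to 0.21, and of the markers Afp −2.12 to 0.51 and Sox17 −0.032 to 0.56. The ratio of Pkp2 to Dsg2 moved to −0.64 with all probe sets averaged. That mean takes in the dimmer tested Dsg2 probe sets (−0.31, −0.26 and −0.27) and the dim Pkp2 probe set 1460511_at (−0.39). Dim signal limits what can be read of Pkp1, Dsc3 and the dimmer Pkp2 probe sets.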
